A study of Sus scrofa with 9 samples.

Results

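Syndecans, glypicans and perlecan are the main core proteins that carry heparan sulfate at the cell surface and in the pericellular matrix. The 9 genes described here were chosen by symbol: the syndecans SDC1, SDC2, SDC3 and SDC4, the glypicans GPC1, GPC3, GPC4 and GPC6, and HSPG2, which encodes perlecan. They are 9 of the 19535 gene rows of the count table, and all 9 had enough counts to be tested among 13662 genes.

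Heparan sulfate is a sulfated sugar chain attached to serines of these core proteins. It binds basic fibroblast growth factor (bFGF) and helps to hold it on its receptors, so the core proteins act as co-receptors and as a store of growth factor. Syndecans cross the membrane and have a short cytoplasmic tail, glypicans are held by a glycosylphosphatidylinositol (GPI) anchor, and perlecan is a large secreted proteoglycan of basement membranes.

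The libraries came from wild-type porcine valvular interstitial cells (PVICs), the resident mesenchymal cells of the aortic valve leaflet, isolated from pigs aged 4 to 5 months. Control cells were kept in DMEM, OIM cells in osteogenic medium with added phosphate (2 mmol/L), ascorbic acid (50 µg/mL) and insulin, and bFGF cells in the same osteogenic medium with 50 ng/mL bFGF. Treatment lasted 3 days by the labels, and the methods of the study give a shorter time. There were 3 libraries per group, with 57075793 to 64723837 gene counts in control, 57682710 to 67371523 in OIM and 46773376 to 48270827 in bFGF. No source says that libraries of a group came from separate animals or cultures, so p-values measure the spread between these libraries, which may be technical.

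The mesenchymal identity of the cells was checked on 10 marker genes. All 10 were above 1 CPM (counts scaled to a common library size) in each group, and their summed level ran from 65097 to 70574 CPM in control, from 61767 to 64608 in OIM and from 38038 to 38370.3 in bFGF. COL1A1, the main chain of type I collagen, fell from 25047 ± 1121 CPM in OIM to 9886 ± 222 CPM in bFGF (SD and n = 3 for each group). In all, 3 of the 10 were called lower in bFGF against OIM and 2 higher, beside 18.4% and 17.7% of all genes tested. COL1A2 fell from 17751 to 8849 CPM and COL3A1 from 10893 to 6606 CPM, and COL3A1 was not called with library totals alone. S100A4 rose from 65.7 to 116 CPM and VIM, the filament protein vimentin, from 5695 to 9008 CPM. Of 8 endothelial markers 7 were in the table, and they summed to 72.5 to 74.4 CPM in control, 86.7 to 87.9 in OIM and 166 to 176 in bFGF. Most of that sum was ERG, an ETS-family transcription factor, at 137 CPM in bFGF. PECAM1 was at 20.7 CPM in bFGF against 11.8 in OIM, TEK at 1.52 against 0.740 and CDH5 at 8.24 against 5.80. CLDN5, under 1 CPM in each group, was at 0.336 against 0.0601 CPM. These 5 of the 7 were called higher in bFGF against OIM and 0 lower, beside 17.7% and 18.4% of all genes. VWF stayed under 1 CPM without being called. Of 6 macrophage markers, 5 were under 1 CPM in each group, and the list summed to 13.4 to 16.6 CPM in control, 14.5 to 16.0 in OIM and 8.38 to 9.23 in bFGF. CD14 gave most of the sum and was called lower in bFGF, at 7.68 CPM against 13.5 in OIM. The 5 epithelial markers in the table summed to 0.220 CPM or less in each library, with KRT5 at 0 in all of them. The part of these shifts in the results below was not tested. In bulk RNA, fewer cells of a type and less RNA per cell cannot be told apart.

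The 4 syndecans share the end of their cytoplasmic tail, through which they bind PDZ-domain proteins such as syntenin. The last 30 bases of the coding sequence, stop codon included, are printed because genes so alike at this end differed in their response to bFGF. They were read from Sscrofa11.1 along the transcribed strand, and capitals mark the 12 bases before the stop codon.
SDC1 (chr3:118009821-118009850, plus strand): cccagcaggcaggagGAGTTCTACGCCtga
SDC2 (chr4:40003853-40003882, minus strand): aaggcaccgactaagGAGTTTTATGCGtga
SDC3 (chr6:87498871-87498900, minus strand): cctgacaagcaggagGAGTTCTATGCCtag
SDC4 (chr17:47650511-47650540, minus strand): aaagcccccaccaatGAGTTCTACGCCtga
In the 12 capital bases SDC1 and SDC4 had 0 differences, SDC3 differed from either at 1 base, and SDC2 differed from SDC3 at 2 and from SDC1 and SDC4 at 3.

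Chains are attached at serines followed by glycine, usually with acidic residues nearby. The first such codon pair with at least 2 acidic neighbours is shown in capitals for 2 pairs of genes of the same family that bFGF moved differently. A match describes the sequence and does not show that a chain is attached there.
SDC1 (chr3:118006597-118006626, plus strand): gatcaggatggcTCTGGGgatgactctgac
SDC2 (chr4:40018347-40018376, minus strand): attgaagaagctTCAGGAgtgtatcctatt
GPC4 (chrX:109308964-109308993, minus strand): agtggagaaggaAGTGGGagtggctgtgag
GPC6 (chr11:63556528-63556557, plus strand): tcggggagtggcAGTGGCtgcatggatgac
The serine was at codon 37 of 309 in SDC1 and codon 41 of 202 in SDC2, in the outer part of the ectodomain. In GPC4 it was at codon 498 of 556 and in GPC6 at codon 509 of 565, near the anchored end. Counted over the whole coding sequence, Ser-Gly pairs numbered 5 in SDC1, 3 in SDC2, 10 in SDC3, 3 in SDC4, 5 in GPC1, 2 in GPC3, 4 in GPC4, 6 in GPC6 and 55 in HSPG2, whose reading frame has 4573 codons.

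The genes lie at chromosome 3, 117987585 to 118011886 (SDC1), chromosome 4, 40003618 to 40129483 (SDC2), chromosome 6, 87495041 to 87535689 (SDC3), chromosome 17, 47650387 to 47670499 (SDC4), chromosome 15, 139457866 to 139483704 (GPC1), chromosome 11, 62436143 to 63560908 (GPC6) and chromosome 6, 79849691 to 79958283 (HSPG2) of Sscrofa11.1. GPC4 (chromosome X, 109306489 to 109421947) and GPC3 (109536495 to 109973605) are neighbours on the same strand, 114547 bases apart. LDLRAD2, on the opposite strand, shares 621 exon bases with HSPG2, and since no source states whether counting used strand, reads there may be shared. The span of LOC102164147 reaches 1 exon of GPC3 but shares 0 exon bases with it.

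To compare the bFGF and OIM groups, which asks what bFGF added to osteogenic medium did to each core protein, calls required both an adjusted p no greater than 0.05 and a log2 fold change of 0.5 or more in either direction. Of the 9 genes, SDC1 was called higher in bFGF, and SDC2, SDC3 and GPC6 were called lower. These 4 calls are 44.4% of the members, beside 36.2% of all genes tested (17.7% higher and 18.4% lower). The median log2 fold change was -0.42 over the members and -0.0029 over all genes tested. Scaling by library totals alone instead of TMM factors moved the median over all genes by 0.22 and gave 1 member called higher and 2 lower. The split of calls over all genes rests on this choice too: 49.0% of them were higher in bFGF with TMM and 68.8% with library totals alone. At a fold limit of 1 on the log2 scale, SDC2 and GPC6 were called, 2 of 9 members beside 18.0% of all genes.

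**Figure D1:**
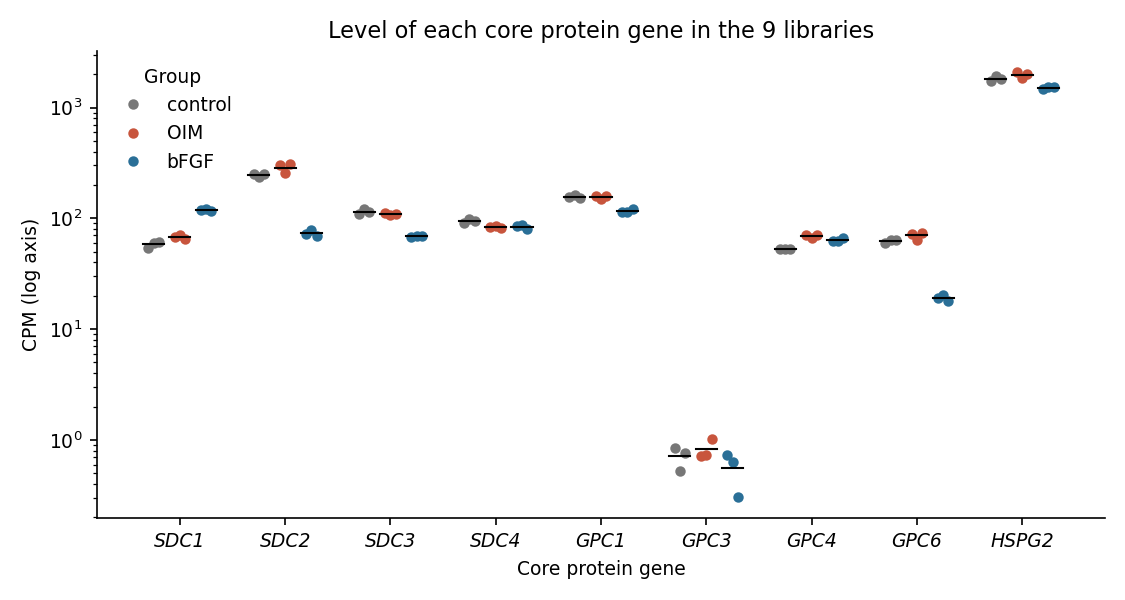
Level in CPM (log axis) of the 9 core protein genes in each of the 9 libraries, with points for libraries, colours for groups and black lines for group means. The bFGF libraries lie above the others for SDC1 (117 to 121 CPM) and far below them for SDC2 (68.6 to 78.2 CPM) and GPC6 (17.8 to 20.5 CPM).

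SDC2, the syndecan typical of mesenchymal cells, had 252, 235 and 250.1 CPM in control replicates 1 to 3, 301, 254 and 306 CPM in OIM, and 72.1, 78.2 and 68.6 CPM in bFGF. All bFGF libraries lay far below the other 6, and OIM replicate 2 was the lowest of its group. The fall from OIM to bFGF was 3.93-fold, or -1.97 ± 0.061 on the log2 scale (fold change ± standard error), with an adjusted p of 4.03e-16 (edgeR quasi-likelihood test, Benjamini-Hochberg). Only 5.68% of all genes tested had a larger absolute change. Against control the log2 fold change was -1.75 (95% confidence interval -1.88 to -1.62). Both comparisons use the same bFGF libraries.

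GPC6, a glypican needed for long-bone growth whose gene spans 1124766 bases, followed the same course. Control libraries had 60.4, 63.8 and 63.2 CPM, OIM libraries 72.8, 63.6 and 73.9 CPM, and bFGF libraries 18.9, 20.5 and 17.8 CPM. Again the bFGF libraries stood apart below all others, and OIM replicate 2 was the lowest in OIM. The log2 fold change was -1.88 in bFGF against OIM (SE 0.064, adjusted p 1.53e-15, edgeR) and -1.71 against control (95% confidence interval -1.85 to -1.58). Over the 9 libraries, GPC6 and SDC2 were the closest pair among the members, with a root-mean-square distance of 0.059 between their centred log2 CPM profiles. The next pair, GPC1 and HSPG2, was at 0.084.

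SDC1, the syndecan best known from epithelia and plasma cells, went the other way. It had 54.2, 60.4 and 61.6 CPM in control, 67.6, 71.1 and 65.4 CPM in OIM, and 119, 121 and 117 CPM in bFGF. The 3 groups did not overlap. The rise from OIM to bFGF was 1.75-fold, a log2 fold change of 0.81 (SE 0.049, adjusted p 1.12e-11, edgeR), and against control it was 2.02-fold.

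SDC3, a syndecan first known from nervous tissue, had 109, 121 and 114 CPM in control, 112, 108 and 109 CPM in OIM, and 67.8, 69.2 and 69.2 CPM in bFGF. The bFGF libraries lay below all others, while control and OIM overlapped. Its log2 fold change was -0.67 in bFGF against OIM (SE 0.043, adjusted p 2.71e-11, edgeR). With library totals alone it was -0.45 and SDC3 was no longer called.

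SDC4, the syndecan of focal adhesions, had 84.4, 86.6 and 80.6 CPM in bFGF and 83.0, 85.9 and 82.4 CPM in OIM. The groups overlapped, and the difference of 0.0012 on the log2 scale had a 95% confidence interval of -0.088 to 0.090. Its sign changed with the filter and the libraries used, and with library totals alone the value was 0.22. Against control, where the libraries had 91.5, 97.6 and 94.2 CPM, the log2 fold change of -0.17 passed the adjusted p (0.00134 in edgeR's test) but not the fold limit, and its sign turned with library totals alone (0.053).

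**Figure D2:**
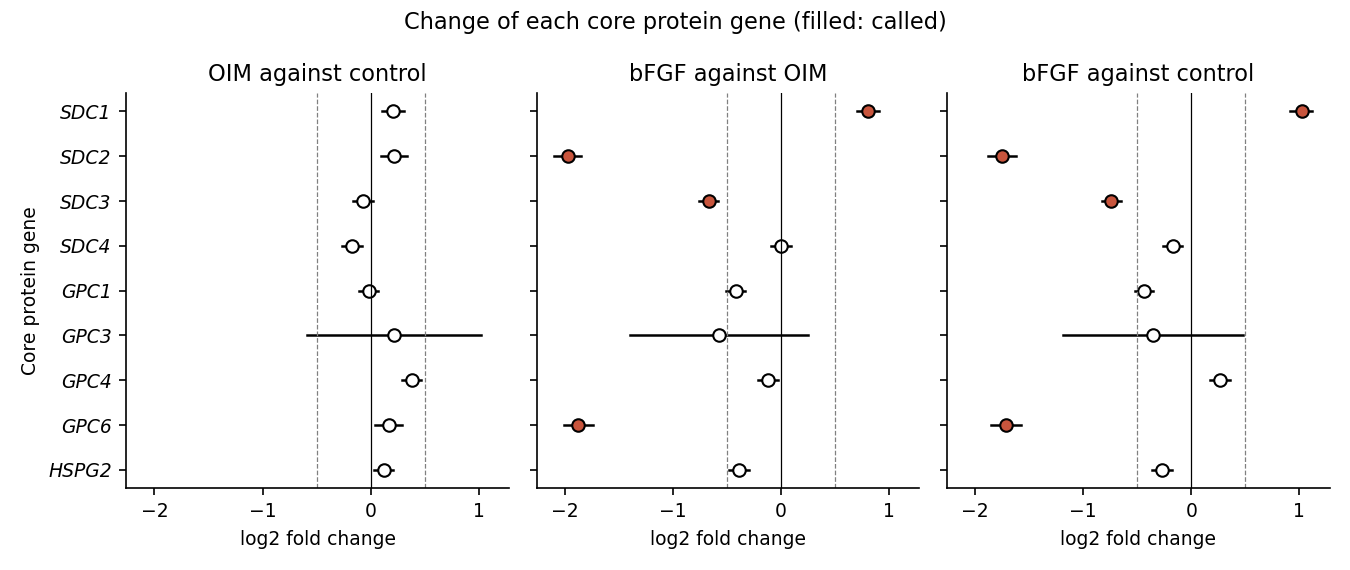
Log2 fold change of each core protein gene in 3 comparisons, with 95% confidence intervals as lines, filled points for called genes and dashed lines at the fold limit of 0.5. SDC2 and GPC6 lie between -1.97 and -1.71 in both bFGF comparisons, SDC1 is the only filled point above 0, and no point is filled for OIM against control.

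The other glypicans and perlecan changed less. GPC1, a widely expressed glypican, had 158, 149 and 158 CPM in OIM and 113, 113 and 122 CPM in bFGF, with no overlap. The log2 fold change of -0.42 (SE 0.042, adjusted p 3.07e-08, edgeR) was under the fold limit, and it was -0.20 with library totals alone. HSPG2 had 2092, 1837 and 1997 CPM in OIM and 1480.4, 1516 and 1529 CPM in bFGF, also without overlap. Its log2 fold change was -0.39 (SE 0.044, adjusted p 1.46e-07, edgeR), again under the limit, and -0.17 with library totals alone.

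GPC4, a glypican that modulates FGF and Wnt signalling, had 70.5, 66.7 and 70.9 CPM in OIM and 63.0, 62.9 and 66.1 CPM in bFGF. The bFGF libraries lay just below, by a log2 fold change of -0.12 (adjusted p 0.0249, edgeR), which became 0.11 with library totals alone. In edgeR it no longer passed the adjusted p without OIM replicate 1 (0.0797), OIM replicate 3 (0.0884), bFGF replicate 1 (0.0806) or bFGF replicate 2 (0.0815). GPC3, a growth-restraining glypican of embryonic tissues, had few counts in each library. Its libraries held 39, 48 and 59 counts in OIM and 39, 33 and 16 in bFGF, and the groups overlapped. The log2 fold change of -0.57 had a 95% confidence interval of -1.40 to 0.25 (adjusted p 0.209, edgeR), so a change of the size seen for SDC3 was not detectable at this depth. The GPC3 value was -0.28 without bFGF replicate 3 and -0.81 without bFGF replicate 1.

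Counting the adjusted p alone, 7 of the 9 members differed between bFGF and OIM, beside 67.4% of all genes tested. With library totals alone SDC4 also passed (adjusted p 0.000141, edgeR). The 7 genes that passed with TMM had bFGF libraries that did not overlap with the OIM libraries, beside 72.1% of all genes (36.3% with bFGF higher and 35.8% with bFGF lower).

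OIM was compared with control to see what osteogenic medium alone did. Of the 9 members, 0 were called, beside 2.35% of all genes tested (1.49% higher and 0.864% lower). At an unadjusted p under 0.05 in edgeR, 6 of them differed, beside 26.2% of all genes, and 0 of these reached the fold limit. DESeq2 also called 0. By the adjusted p alone 4 members differed, beside 13.6% of all genes, and the groups did not overlap in the same 4, beside 28.8% (14.5% with OIM higher and 14.2% with OIM lower).

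GPC4 was the member with the largest difference that passed the adjusted p. It had 53.2, 53.1 and 53.3 CPM in control, and each of the 3 OIM libraries was higher (66.7 to 70.9 CPM). Its log2 fold change was 0.38 (SE 0.044, adjusted p 5.22e-06, edgeR). SDC1 and SDC2 were higher in OIM by 0.21 and 0.22 on the log2 scale, with adjusted p-values of 0.00617 and 0.0133 from edgeR's test. SDC4 was lower by 0.17, at 83.8 ± 1.89 CPM in OIM against 94.4 ± 3.05 in control (SD, n = 3), with an adjusted p of 0.00875 from edgeR's test.

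GPC6 and HSPG2 had log2 fold changes of 0.17 and 0.12 in OIM, with adjusted p-values of 0.0707 and 0.0741 in edgeR's test. SDC3 and GPC1 were at -0.070 and -0.018, with 95% confidence intervals of -0.16 to 0.018 and -0.11 to 0.069. GPC3 was at 0.22 with a wide interval of -0.59 to 1.02, and at 0.031 without OIM replicate 3 or 0.040 without control replicate 2.

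OIM replicate 2 stood apart from its group: the mean chi-square per gene was 19.1 between OIM replicates 2 and 3 and 5.87 between replicates 1 and 3. Without it, the edgeR values of this comparison were 0.23 for GPC6 (adjusted p 0.00326), 0.17 for HSPG2 (adjusted p 0.000655) and 0.31 for SDC2 (adjusted p 3.77e-06). SDC2 no longer passed the adjusted p in edgeR without control replicate 2 (0.0761), OIM replicate 1 (0.0701) or OIM replicate 3 (0.0699). HSPG2 passed without control replicate 2 (adjusted p 0.0214, edgeR), with library totals alone (0.0344), with no filter (0.0308) and in DESeq2 (0.0405). GPC6 passed with no filter (adjusted p 0.0491, edgeR).

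Against control, the bFGF libraries had SDC1 called higher and SDC2, SDC3 and GPC6 called lower, 4 of 9 members beside 39.0% of all genes tested (18.9% higher, the rest lower). By the adjusted p alone 8 members differed, beside 70.2% of all genes, and these 8 had no overlap between groups, beside 73.7% (36.4% with bFGF higher and 37.3% with bFGF lower). With library totals alone, SDC4 (adjusted p 0.283, edgeR) and HSPG2 (0.323) no longer passed. At a fold limit of 1, SDC1, SDC2 and GPC6 were called, 3 of 9 members beside 20.2% of all genes. GPC4 was higher than control in bFGF by 0.27 on the log2 scale and HSPG2 lower by 0.27, both under the limit. GPC1 was lower by 0.44. With library totals alone these values were 0.49 for GPC4, -0.042 for HSPG2 and -0.21 for GPC1.

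Levels of different genes were compared per kilobase of annotated exon. In control, the order was SDC2 at 224 ± 8.18 CPM per kilobase (SD, n = 3), HSPG2 at 122 ± 6.62, GPC1 at 59.7 ± 1.97, SDC4 at 23.6, SDC3 at 19.2, SDC1 at 16.6, GPC4 at 11.4, GPC6 at 7.43 and GPC3 at 0.315. No neighbours in that order overlapped between libraries. In OIM the order was the same except that SDC1 (19.2) and SDC3 (18.3) changed places, and this pair overlapped. In bFGF, HSPG2 led with 101 ± 1.69 CPM per kilobase, followed by SDC2 at 66.4 ± 4.44, GPC1 at 44.1 ± 2.06, SDC1 at 33.6 ± 0.624, SDC4 at 21.0, GPC4 at 13.7, SDC3 at 11.5, GPC6 at 2.27 and GPC3 at 0.246, with no overlap of neighbours.

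The order depends on the annotated untranslated ends. The SDC2 model is 1099 bases long, of which 609 are coding, while SDC4 has 4001 exon bases and 609 coding bases. Per coding kilobase SDC2 still led in control (404 CPM) and OIM (471), but in bFGF SDC4 (138), SDC1 (128), SDC2 (119.8) and HSPG2 (109.9) came close together, with SDC4 first. The counts were not limited to coding bases, so this measure raises genes with long untranslated ends, among them SDC4. Which order is nearer to transcript numbers was not tested.

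The make-up of each family was followed as the share of its summed level per kilobase. SDC2 made up 79.0% ± 1.31 of syndecan transcripts in control, 81.6% ± 1.85 in OIM and 50.1% ± 1.14 in bFGF (SD, n = 3). SDC1 went from 5.86% ± 0.438 and 6.05% ± 0.753 to 25.4% ± 0.639, and SDC4 from 8.34% ± 0.436 and 6.59% ± 0.700 to 15.8% ± 0.203, while its own level was 83.8 CPM in OIM and 83.9 CPM in bFGF. Per coding kilobase the SDC2 share was 59.8% in control, 64.2% in OIM and 28.7% in bFGF. A length is a constant for each gene, so the size of this share could change with it but not its direction. The SDC4 share was then 23.0%, 18.8% and 33.0%, the largest in bFGF, and the SDC1 share in bFGF was 30.7%. These shares divide whole-gene counts by coding bases, so the long untranslated ends of SDC4 raise its share.

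The summed syndecan level was 283 ± 6.23 CPM per kilobase in control, 319 ± 25.3 in OIM and 132 ± 5.82 in bFGF (SD, n = 3). SDC2 made up 79.0% of this sum in control and 81.6% in OIM. The size of the fall thus rests on the 1099-base length of its model. Among glypicans, GPC1 held 75.7% ± 0.591, 71.4% ± 0.447 and 73.1% ± 0.709 of the level in control, OIM and bFGF. The GPC4 share was 14.5% ± 0.381 in control, at most 18.1% in the OIM libraries and 22.8% ± 0.196 in bFGF, and the GPC6 share 9.43% ± 0.229, 10.1% ± 0.453 and 3.76% ± 0.375. Per coding kilobase the GPC1 share was 57.5%, 52.6% and 58.1% in control, OIM and bFGF, the GPC4 share 19.6%, 23.7% and 32.2%, and the GPC6 share 22.6%, 23.5% and 9.45%. The summed glypican level was 78.9 ± 2.01, 82.5 ± 3.05 and 60.4 ± 2.23 CPM per kilobase.

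**Figure D3:**
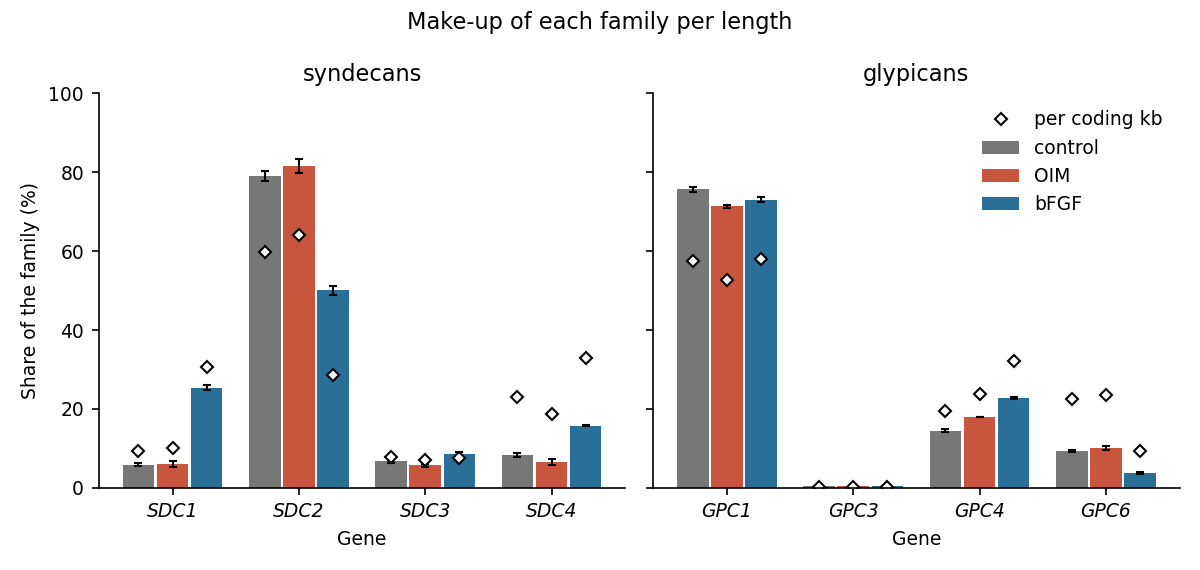
Share of each syndecan among the 4 syndecans and of each glypican among the 4 glypicans, in percent of the summed level per kilobase of exon. Bars are group means with SD of 3 libraries, and diamonds are the means per coding kilobase. The SDC2 bar drops from 81.6% in OIM to 50.1% in bFGF while the SDC1 bar rises from 6.05% to 25.4%.

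Other transcripts at the same loci were counted in the non-coding part of the table. LOC110260253, an annotated non-coding transcript on chromosome 4 from 40032220 to 40036712, lies in the first intron of SDC2 on the same strand and shares 0 exon bases with it. Its estimated counts were 103 to 182 per library in control, 80.7 to 143 in OIM and 29.8 to 31.8 in bFGF. These correspond to 2.23 ± 0.704, 2.06 ± 0.712 and 0.592 ± 0.0318 CPM (SD, n = 3), and the bFGF libraries lay below all others, as they did for SDC2. Reads of this transcript and of unspliced SDC2 RNA cannot be told apart here, and the difference was not tested.

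**Figure D4:**
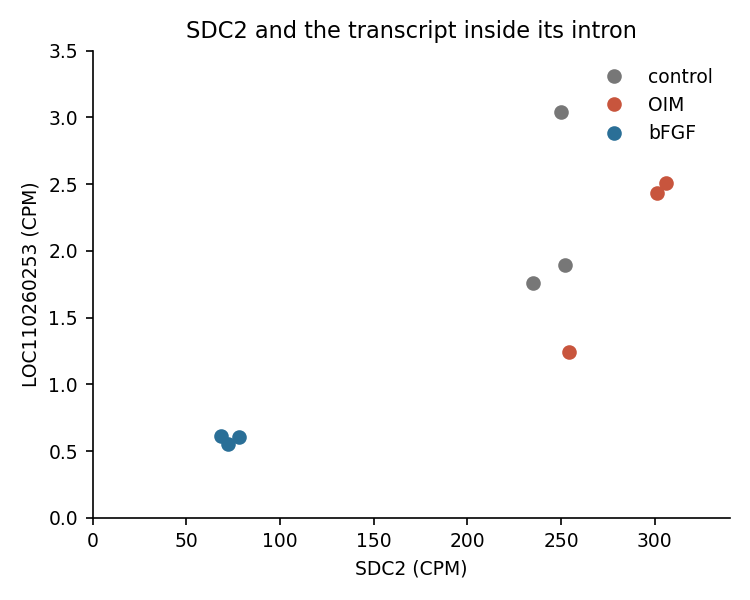
Level of SDC2 (CPM, horizontal) and of the non-coding transcript LOC110260253 inside its first intron (CPM, vertical), 1 point per library. The 3 bFGF libraries sit at the lower left, at 68.6 to 78.2 CPM of SDC2 and 0.555 to 0.613 CPM of the transcript, apart from the control and OIM libraries.

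Inside GPC3, the opposite-strand transcript LOC102164147 had 0.49 ± 0.262 CPM in control, 0.361 ± 0.155 in OIM and 0.537 ± 0.0925 in bFGF (SD, n = 3), and the groups overlapped. LOC110257860, also opposite to GPC3, had at most 9.56 estimated counts, and LOC110257654, opposite to GPC4, had 0 in all 9 libraries.

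Circular RNAs, which form when a splice donor joins an acceptor further upstream, were matched to the genes by coordinates. Of the 6179 circRNAs in the table, 6 lay within a member's span, and 5 of these had counts in 1 library each, at most 6. The sixth, circRNA_4817 (chr6:79875804-79876991, minus strand), runs from exon 61 to exon 64 of HSPG2. It had 8, 12 and 6 junction counts in control, 7, 10 and 5 in OIM, and 5, 7 and 8 in bFGF. The groups overlapped, and the difference was not tested. Its junction, shown because it was the one circular product of these genes found in each library, joins the end of exon 64 (capitals) to the start of exon 61.
circRNA_4817: CCCAGCCGGCACCAGacccacggctcactg

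The genes other than members whose profiles over the 9 libraries were nearest to those of SDC1 and SDC2 were looked up, by the root-mean-square distance of centred log2 CPM. Nearest to SDC1 were ARL6IP1 (distance 0.035), PHGDH (0.040), an enzyme of serine synthesis, and EHD4 (0.040), a protein of endosome recycling. Nearest to SDC2, apart from its fellow member GPC6 (0.059), were TAGLN (0.065) and CALD1 (0.069), contractile proteins of smooth muscle and myofibroblasts, and INHBA (0.068), the activin A subunit. TAGLN had 2682 CPM in control, 2925 in OIM and 819 in bFGF. The median distance over all genes was 0.51 from SDC1 and 0.91 from SDC2.

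The genes around the core proteins were read from lists written with earlier results of these data known. Other proteins that carry heparan sulfate, or can carry it, numbered 10 tested of 11. In bFGF against OIM, 6 were called higher and 2 lower, beside 17.7% and 18.4% of all genes. With library totals alone the calls were 6 and 1. The median log2 fold change was 0.66 beside -0.0029 for all genes, and 0.88 beside 0.22 with library totals alone. GPC2, a glypican outside the 9 members, was called higher, at 1.71 CPM against 1.02 in OIM. In OIM against control 0 of the 10 were called, beside 2.35% of all genes. COL18A1, the basement membrane collagen XVIII, rose from 102 ± 9.13 CPM in OIM to 315 ± 3.04 in bFGF (SD, n = 3), corresponding to a log2 difference of 1.62 (adjusted p 2.66e-16, edgeR). SPOCK3, a testican, rose by 1.78 and SRGN, the intracellular proteoglycan serglycin, by 0.95. TGFBR3, the co-receptor betaglycan, fell by 0.97, from 46.2 to 23.6 CPM.

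Perlecan's basement membrane partners moved in both directions, as genes as a whole did. Of 15 tested, 5 were called higher and 6 lower in bFGF against OIM, beside 17.7% and 18.4% of all genes. With library totals alone the calls were 8 and 5. The list median was 0.36 beside -0.0029 for all genes, and 0.58 beside 0.22 with library totals alone. The nidogens, which bind perlecan and link laminin to collagen IV, rose: NID1 from 289 ± 21.1 to 869 ± 10.2 CPM and NID2 from 373 ± 24.3 to 1042 ± 19.9 CPM (SD, n = 3), corresponding to log2 differences of 1.59 and 1.48. COL4A1, a collagen IV chain, fell from 1865 ± 221 to 629 ± 25.4 CPM, and FBLN2, a fibulin, fell from 1022 to 374 CPM. In OIM against control 1 of the 15 was called, beside 2.35% of all genes. This was ECM1, a perlecan-binding matrix protein, at 126 ± 17.6 CPM against 246 ± 17.8 (SD, n = 3), corresponding to a log2 difference of -0.96 (adjusted p 1.01e-08, edgeR).

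Enzymes that build and edit the heparan sulfate chain numbered 19 tested of 21. In bFGF against OIM 4 were called higher and 3 lower, beside 17.7% and 18.4% of all genes. With library totals alone the calls were 6 and 1, and 68.8% of the calls over all genes were then higher. The list median was 0.016 beside -0.0029 for all genes, and 0.24 beside 0.22 with library totals alone. HS3ST1, a 3-O-sulfotransferase, had at most 1 count in the OIM libraries and 50 to 59 counts in the bFGF libraries, at least 20.5-fold higher when 3 counts per OIM library are taken as the floor. HS3ST3B1, of the same enzyme family, had 0.528 CPM in bFGF against 0.141 in OIM, a rise of 1.92 on the log2 scale (adjusted p 0.0151, edgeR). HS6ST1, a 6-O-sulfotransferase, rose from 69.9 to 124 CPM. SULF1, a sulfatase that removes 6-O-sulfate at the cell surface, fell from 491 ± 4.43 to 199.7 ± 8.46 CPM (SD, n = 3), corresponding to a log2 difference of -1.30 (adjusted p 1.30e-16, edgeR). In OIM against control 0 of the 19 were called, beside 2.35% of all genes.

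Proteins that shed or process core proteins, or restrain such enzymes as TIMP3 does, numbered 13 tested of 15. In bFGF against OIM 1 was called higher and 4 lower, beside 17.7% and 18.4% of all genes. With library totals alone 3 were called higher and 2 lower. FURIN, a convertase that cleaves glypicans, rose from 145 ± 5.80 to 260.1 ± 3.28 CPM (SD, n = 3). CTSL, the protease cathepsin L, fell from 191 ± 6.58 to 49.0 ± 1.35 CPM, a log2 fold change of -1.96 (adjusted p 9.82e-19, edgeR). MMP9 fell by 0.84 and PCSK5 by 0.71, the latter by 0.49 and not called with library totals alone. Of the 5 subunits of the GPI transamidase, which attaches anchors such as those of glypicans, PIGU was called higher (0.65) and the other 4 were not called.

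Proteins that bind syndecan tails, or act with those that do, numbered 15 tested of 15. In bFGF against OIM 1 was called higher and 2 lower, beside 17.7% and 18.4% of all genes. With library totals alone the calls were 1 and 1. The list median was -0.21 beside -0.0029 for all genes, and 0.011 beside 0.22 with library totals alone. ACTN1, an alpha-actinin of focal adhesions, fell from 979 ± 56.9 to 556 ± 9.47 CPM (SD, n = 3). ACTN4, its close relative, fell by 0.60, and by 0.38 without being called with library totals alone. TIAM1, an activator of the GTPase Rac, rose by 0.58 in bFGF against OIM and by 0.62 in OIM against control. In the latter comparison it was the only one of the 15 called, beside 2.35% of all genes.

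Ligands that bind heparan sulfate numbered 19 tested of 20. Of these, 4 were called higher and 6 lower in bFGF against OIM, beside 17.7% and 18.4% of all genes. With library totals alone the calls were 6 and 4. FGF1 rose from 1.37 ± 0.318 to 13.1 ± 0.201 CPM and HGF, hepatocyte growth factor, from 18.8 ± 4.95 to 149 ± 6.65 CPM (SD, n = 3). SLIT3, a secreted guidance protein, fell from 60.2 ± 10.1 to 9.78 ± 0.736 CPM, and THBS1, the matrix protein thrombospondin 1, from 31243 ± 1924 to 7594 ± 306 CPM (SD, n = 3). In OIM against control FGF1 and SLIT3 were called higher, by 0.87 and 0.77 on the log2 scale. LPL, a lipase held on heparan sulfate, was called lower, by a log2 fold change of -0.76. Over all genes 1.49% were called higher and 0.864% lower in this comparison.

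FGF receptors and feedback genes numbered 13 tested of 13. In bFGF against OIM 7 were called higher and 2 lower, beside 17.7% and 18.4% of all genes, and 8 and 2 with library totals alone. The list median was 1.07 beside -0.0029 for all genes. In OIM against control 0 were called, beside 2.35% of all genes. ETV5 and ETV4, transcription factors downstream of FGF, rose by 2.72 and 2.02 on the log2 scale, and DUSP6, a phosphatase that restrains ERK, rose by 1.95. FGFR2, a receptor that needs heparan sulfate to bind its ligands, fell from 129 ± 9.71 to 16.2 ± 0.339 CPM (SD, n = 3) (adjusted p 8.22e-19, edgeR). FGFR1, the FGF receptor with the highest CPM in each group, was not called. It had 192 ± 5.52 CPM in OIM and 226 ± 2.41 in bFGF (SD, n = 3), a log2 difference of 0.23.

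**Figure D5:**
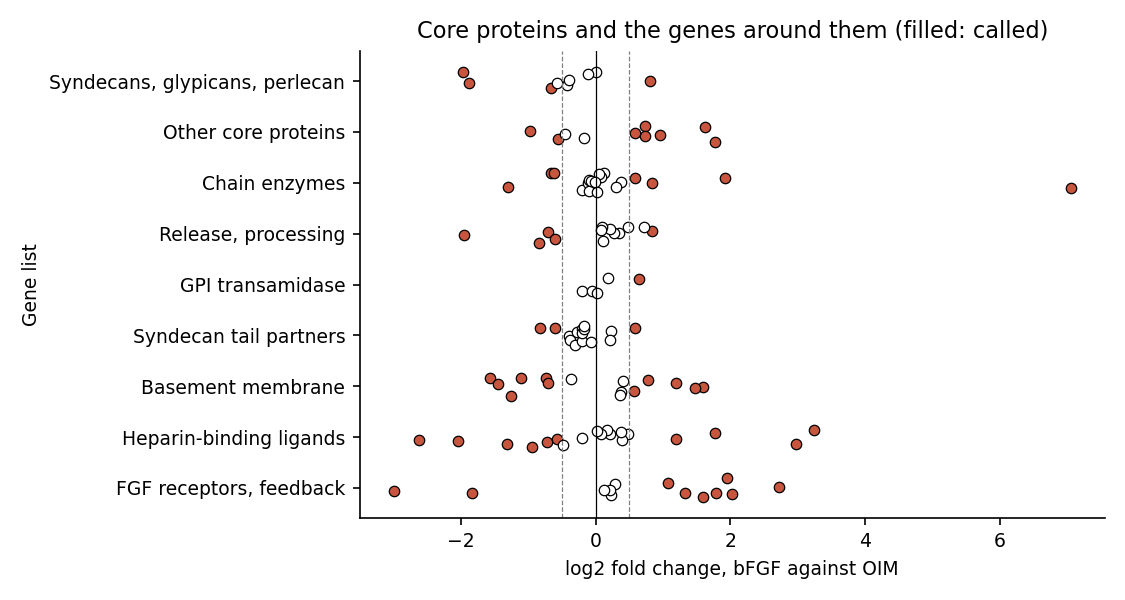
Log2 fold change in bFGF against OIM for the 9 core proteins (top row) and the genes of 8 lists around them, 1 point per gene, filled where called, with dashed lines at the fold limit of 0.5. The point near 7 among chain enzymes is HS3ST1, a fitted value against a group with at most 1 count per library, and is no measure of its fold.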

How the data were processed

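The deposited table holds expected counts that the authors did not normalize: read counts of 19535 genes, estimates for 9888 non-coding transcripts and junction counts of 6179 circRNAs. The submitters' processing notes name Trimmomatic, HISAT2, StringTie and Sscrofa11.1, and the methods of the study name Cutadapt, STAR and susScr11. The labels name a kit that depletes ribosomal RNA, the methods poly-A selection. The counting program and its use of strand are not given in the sources used here.

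Gene counts of all 9 libraries were fitted in 1 model of 3 groups with edgeR 4.0.16 in R 4.3.3 (filterByExpr, TMM, quasi-likelihood test), with Benjamini-Hochberg adjustment over 13662 genes and a fold limit of 0.5 on the log2 scale. CPM values use TMM-scaled library sizes. Lengths and sequences come from RefSeq on Sscrofa11.1. On simulated counts for bFGF against OIM, 191 of 200 changed genes were recovered, with 3 false calls among 13504 genes. The 200 genes lay above 1 CPM and moved by 1 on the log2 scale, up and down in equal number. The simulation therefore says nothing on scaling when many genes change, on smaller changes or on genes with few counts. Replicates of each pair differed by more than sampling noise.

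The members and lists were chosen with earlier results of these data known. All members were named and, per list, at most 4 called genes with the largest change in bFGF against OIM and a mean of at least 10 counts, every list gene called in OIM against control, and the 3 genes nearest in profile to the members with the largest rise and fall. VIM, CDH5, VWF, TIMP3, KRT5, GPC2 and FGFR1 were named after their values were seen. Alternatives were DESeq2 1.42.0, other size factors, filters, fold limits and gene lengths, 2-group fits, a replicate block and leaving out each library.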

Additional observations from a re-analysis of the deposited data

How the results depend on the processing

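The number of members called in OIM against control was 0 under each alternative with the fold limit of 0.5 or 1, and 4 without a fold limit. In bFGF against OIM it was 7 without a fold limit and 2 with a limit of 1. In bFGF against control it was 8 without a fold limit and 3 with a limit of 1, where SDC3 was lost. Leaving out each of the 9 libraries in turn gave 0 to 0 calls in OIM against control, 4 to 4 in bFGF against OIM and 4 to 4 in bFGF against control. Of 429 fold changes of single members over 16 alternatives, 415 kept their direction and their side of the threshold, 1 lost its call (SDC3, -0.45 with library totals alone) and 13 changed sign, none of them called. These were SDC4 in bFGF against OIM (-0.0030 without a filter, -0.0019 with at least 50 counts in 3 libraries, -0.0011 with only those 2 groups, and -0.024 to 0.038 with single libraries left out), GPC1 in OIM against control (-0.034 to 0.0095 with single libraries left out), GPC4 in bFGF against OIM (0.11) and SDC4 in bFGF against control (0.053), the last pair with library totals alone. The cause was not tested. GPC3 was not tested under the stricter filter.

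Groups share replicate numbers, but only 1 of 9 same-numbered pairs had deviations correlated over 0.1 (range -0.18 to 0.16), and 5 of 18 best matches shared a number, so the numbers were not taken as pairs. With the replicate block, 0 members were called in OIM against control, 4 in bFGF against OIM and 4 in bFGF against control.

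With the longest transcript as gene length, the SDC2 share of syndecans in bFGF was 48.3% and the SDC1 share 26.9%. The coding length was added after the data were seen, and shares that rest on it stand beside the others above. Depth limits statements on GPC3.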
